A study of Mus musculus with 6 samples.

Results

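The mitosis and spindle genes are 40 genes that cells use to enter mitosis, build the spindle, hold and separate chromosomes, and divide. They were named as a list with earlier results of these arrays known, and the values that chose them were the log2 ratios of Lmx1a-transfected over control cells, including the comparison of the 3 RNA pools. Of the 40 genes, 39 had a probe under a current symbol, on 60 of 31769 probes, and the arrays named 17865 genes in all. Ccnb1 (cyclin B1) had no probe under its symbol. Because the choice used the Lmx1a ratios and the pools, both are given as descriptions. Detection and promoter sequence were not part of the choice. Dye bias was not named in it, but it is computed from the same array ratios.

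The cells were MN9D, a mouse line with dopaminergic features. Lmx1a cells received 6 ug of the plasmid pcDNA3.1(-) with the coding sequence of Lmx1a, a LIM homeobox factor that directs dopaminergic neuron formation, and the control cells received pcDNA3.1(-) without an insert. There were 3 pools of Lmx1a RNA, each from 3 dishes, and 1 pool of control RNA from 9 dishes, from cells harvested at 90 to 95% confluence. Each Lmx1a pool was hybridised against the control pool on a pair of 2-colour arrays with the dyes swapped, which gave 6 arrays and n = 3. Both were transfected with Lipofectamine, with an equimolar amount of the empty plasmid in controls and pBluescript SKII(+) as carrier DNA, and cells were split afterwards. MN9D is a fusion-derived line that divides in culture, so these cells are not postmitotic neurons, and RNA of transfected and untransfected cells of a dish is mixed.

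Entry into mitosis is driven by cyclin-dependent kinase bound to A- and B-type cyclins, with Polo-like and Aurora kinases. The spindle checkpoint then holds the anaphase-promoting complex (APC/C) inactive until kinetochores are attached, after which securin and cyclin B are degraded and separase opens cohesin. Many of these genes are transcribed together late in the cell cycle through CCAAT boxes, bound by NF-Y, and cell cycle homology regions (CHR), bound by the MuvB complexes. Genes of DNA replication are more often controlled through E2F sites. In bulk RNA, fewer cells in mitosis and less RNA per cell cannot be told apart.

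Promoter windows of the mouse reference, from 250 bases before to 50 bases after each gene's start, were found for 34 of the 40 genes, in 36 windows (RefSeq, GRCm38.p6). Aurkb, Ccna2, Incenp, Kif20a, Smc4 and Tpx2 were not matched. The 4 windows shown first belong to the mitotic cyclins, to Plk1 and to the APC/C activator Cdc20, which stand at the centre of mitotic entry and exit. The other two belong to Nuf2 and Espl1, which had the highest and the lowest mean log2 ratio of the list. Capitals mark the letters TTTGAA or TTCGAA (CHR), CCAAT (NF-Y) and TTCGCGC or TTGGCGC (E2F), each read on both strands, so a match on the other strand stands as its reverse complement. The windows lie at chr13:100786437-100786736 (Ccnb1, minus strand), chr9:70421505-70421804 (Ccnb2, minus), chr7:122159185-122159484 (Plk1, plus), chr4:118437294-118437593 (Cdc20, minus), chr1:169531415-169531714 (Nuf2, minus) and chr15:102296043-102296342 (Espl1, plus).
Ccnb1: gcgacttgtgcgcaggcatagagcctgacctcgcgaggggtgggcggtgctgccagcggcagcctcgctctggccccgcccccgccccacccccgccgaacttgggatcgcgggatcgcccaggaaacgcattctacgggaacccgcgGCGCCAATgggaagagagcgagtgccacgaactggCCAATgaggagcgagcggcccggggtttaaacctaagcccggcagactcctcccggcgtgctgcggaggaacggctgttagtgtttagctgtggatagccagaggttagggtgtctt
Ccnb2: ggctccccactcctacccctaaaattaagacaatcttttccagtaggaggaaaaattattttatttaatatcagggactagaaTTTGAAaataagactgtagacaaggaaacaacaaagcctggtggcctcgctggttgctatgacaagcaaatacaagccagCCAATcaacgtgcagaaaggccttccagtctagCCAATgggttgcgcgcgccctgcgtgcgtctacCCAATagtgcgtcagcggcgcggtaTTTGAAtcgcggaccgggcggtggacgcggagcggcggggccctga
Plk1: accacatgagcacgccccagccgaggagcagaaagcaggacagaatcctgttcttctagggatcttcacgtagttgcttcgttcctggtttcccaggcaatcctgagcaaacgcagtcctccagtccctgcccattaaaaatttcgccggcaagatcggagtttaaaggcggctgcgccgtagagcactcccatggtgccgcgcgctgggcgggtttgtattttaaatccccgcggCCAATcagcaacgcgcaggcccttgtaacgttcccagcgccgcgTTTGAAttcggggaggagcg
Cdc20: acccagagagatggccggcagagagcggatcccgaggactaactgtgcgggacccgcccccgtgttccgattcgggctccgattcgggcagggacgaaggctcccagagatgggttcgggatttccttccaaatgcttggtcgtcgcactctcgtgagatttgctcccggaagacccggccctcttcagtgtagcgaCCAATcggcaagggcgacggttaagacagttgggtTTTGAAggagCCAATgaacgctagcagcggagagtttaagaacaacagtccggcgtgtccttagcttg
Nuf2: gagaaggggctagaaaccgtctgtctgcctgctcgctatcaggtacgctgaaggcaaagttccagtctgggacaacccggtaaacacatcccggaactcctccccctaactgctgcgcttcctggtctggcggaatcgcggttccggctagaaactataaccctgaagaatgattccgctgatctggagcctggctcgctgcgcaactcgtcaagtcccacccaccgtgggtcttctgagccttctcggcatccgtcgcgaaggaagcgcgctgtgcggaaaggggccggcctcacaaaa
Espl1: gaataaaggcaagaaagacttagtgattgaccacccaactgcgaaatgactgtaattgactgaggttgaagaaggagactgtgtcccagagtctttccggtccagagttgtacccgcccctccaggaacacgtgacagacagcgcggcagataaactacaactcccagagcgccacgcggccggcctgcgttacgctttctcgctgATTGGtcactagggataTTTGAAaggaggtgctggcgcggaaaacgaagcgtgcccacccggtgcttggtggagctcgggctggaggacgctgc

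Ccnb2 held 3 CCAAT boxes and a TTTGAA on either side of them, and Cdc20 held 2 CCAAT boxes around 1 TTTGAA. Plk1 and Espl1 held 1 of each. Ccnb1 held 2 CCAAT boxes and no CHR letters, and its single TTGGCGC match overlapped the first of them. Nuf2 held none of the motifs searched, which says only that these letters are not in this window.

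A CHR match was found in 26 of the 34 genes (76.5%), against 18.8% of the 14281 genes on the arrays that had a window. CCAAT was found in 27 of 34 (79.4%), against 42.1%, and both together in 24 of 34 (70.6%), against 7.67%. At least 2 CCAAT boxes were present in 17 of the 34 genes, against 14.6% of all genes, and Top2a (topoisomerase II alpha) and Ube2c held 6 each. E2F letters were found in 4 of 34 genes (11.8%), against 6.51%, namely in Ccnb1, Ect2, Mki67 and Ncapd2. The 8 genes without CHR letters were Birc5, Ccnb1, Cenpe, Mad2l1, Nek2, Nuf2, Nusap1 and Pttg1. CHR matches had a median position of -11.5 relative to the start, which is in the bases before it, and CCAAT matches one of -66. Matches of different kinds overlapped in Ccnb1, Cdca8 and Ect2, and pairs of CCAAT matches overlapped in Ube2c. Other mitosis genes, outside the list, lay between the list and all genes, with CHR letters in 47 of 86 genes (54.7%). They held CCAAT in 59.3%, both in 36.0% and at least 2 CCAAT boxes in 34.9%, so raised shares were not particular to the list. Genes of DNA replication and S phase held CCAAT in 56.1%. Their order of CHR and E2F letters was the other way round, with CHR letters in 9 of 41 genes (22.0%) and E2F letters in 14 of 41 (34.1%). A match is a description of letters and does not show that a factor binds there, and these shares were not tested.

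**Figure D1:**
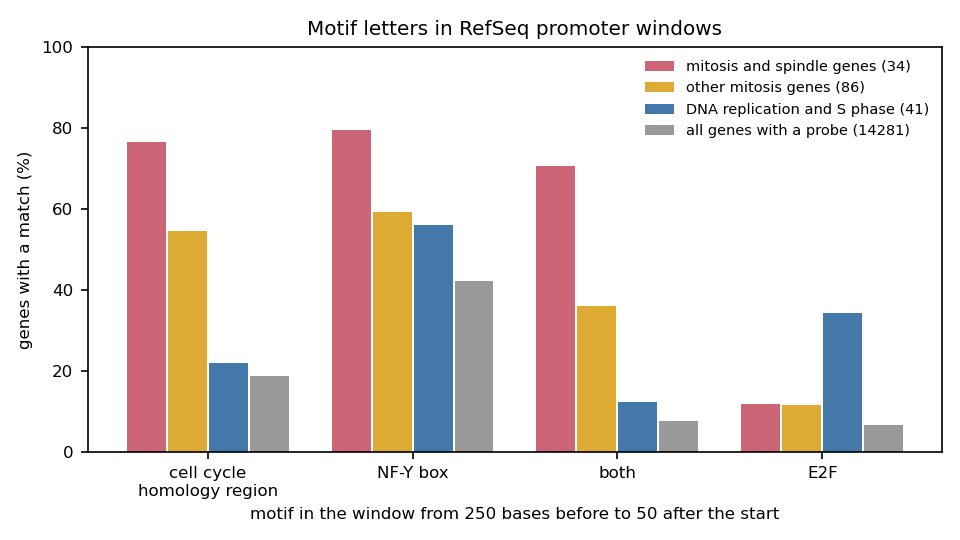
The bars give the percentage of genes with at least 1 match in the promoter window, for the mitosis and spindle genes, other mitosis genes, DNA replication and S phase genes, and all genes with a probe, with the number of genes in each set in the legend. CHR letters stand at 76.5% in the mitosis and spindle genes, at 54.7% in other mitosis genes and at 18.8% in all genes. E2F letters stand highest, at 34.1%, in the S phase genes.

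Each of the 39 measured genes was detected on all 6 arrays with its brightest probe, against 9356 of 17865 genes (52.4%) in all. Detected means that the spot mean exceeded the local background median by 2 background standard deviations in at least 1 channel. The only channel in which a brightest probe of these genes missed this limit was a control channel of Plk1, detected on 5 of 6 arrays. The probe of Aurka (Aurora A kinase, needed for centrosome maturation) was bright. Its background-subtracted brightness was 1601, 1582 and 1581 units for the Lmx1a RNA of pools 1, 2 and 3 in Cy5. For the control RNA on the swapped arrays, also in Cy5, it was 449, 1521 and 1483 units. The probe of Espl1, the protease separase, was dim. It gave 62.7, 57.0 and 62.8 units for Lmx1a RNA in Cy5, against 54.8, 62.2 and 70.8 units for control RNA in Cy5. These raw values differ between arrays before normalization, and levels of different probes are not comparable.

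The dimmest array was that of pool 1 with Lmx1a RNA in Cy3, with a median background-subtracted brightness of 9.02 units and 49.2% of its Lmx1a spots detected, where the other 5 arrays had 60.1 to 67.7%. Pool 2 had the brightest Lmx1a channel in Cy5, at 42.4 units, and 20.0 units in Cy3, beside 20.4 units for pool 3. Lmx1a itself had a log2 ratio of 2.49 ± 0.68 (SD, n = 3) and was above 0 on all 6 arrays, and its limma adjusted p was 0.0779, the smallest of all probes. With the replicate block its limma adjusted p was 0.00721, and 0.0121 with the dye term, so the call for the transfected gene turned on this choice. Of 10 dopaminergic markers, Th, Ddc, Slc18a2 and Nr4a2 were detected on 6 arrays, En2 on 5, En1 on 4, Lmx1b on 1, and Slc6a3, Pitx3 and Foxa2 on 0. Slc18a2, the vesicular monoamine transporter, was above 0 on all 6 arrays, with a limma adjusted p of 0.0799, and of 0.0188 with the replicate block. It was the only 1 of the 10 markers called with the block, against 1.08% of all probes. The other markers detected on 6 arrays had means of 0.084 (Ddc), 0.0067 (Th) and -0.028 (Nr4a2). Of the 10 dopaminergic markers 6 had a mean above 0, and their median was 0.011. Of markers of other cell types, 1 of 5 for fibroblasts, 2 of 5 for astrocytes, 2 of 5 for microglia and leukocytes and 2 of 3 for oligodendrocytes were detected on 6 arrays. Lum (fibroblasts) and Gfap (astrocytes) were detected on 0 and Mbp (oligodendrocytes) on 1, while Mag and Mog (oligodendrocytes) were detected on 6. The median log2 ratio of the fibroblast, astrocyte, microglia and oligodendrocyte lists lay between -0.018 and 0.0087.

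Across the list, 34 of 39 genes had a mean log2 ratio above 0, against 51.0% of all probes, and the median was 0.059, against 0.0032 over all detected genes. The spread between pools was larger than this shift, with a median SD of 0.086 per gene (n = 3). The largest mean was 1.12-fold (Nuf2) and the smallest 0.972-fold (Espl1), so every difference was small. The genes below 0 were Espl1 at -0.041, Cenpf at -0.038, Aurkb at -0.025, Anln at -0.019 and Incenp at -0.0032. The limma test with Benjamini-Hochberg adjustment called 0 of 39 genes at an adjusted p under 0.05, as it called 0% of all probes, and the smallest adjusted p of the list was 0.244. At an unadjusted p under 0.05, 12 genes were higher, against 6.23% of all probes, and 0 were lower, against 5.56%. Of the 9356 detected genes, 1098 were higher and 753 lower. With the 6 arrays and a replicate block, limma called 0 of 39 genes, against 1.08% of probes, and with a dye term added, 0 of 39 again, against 1.05%. Since the list was chosen on this contrast, nothing is read from these counts.

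**Figure D2:**
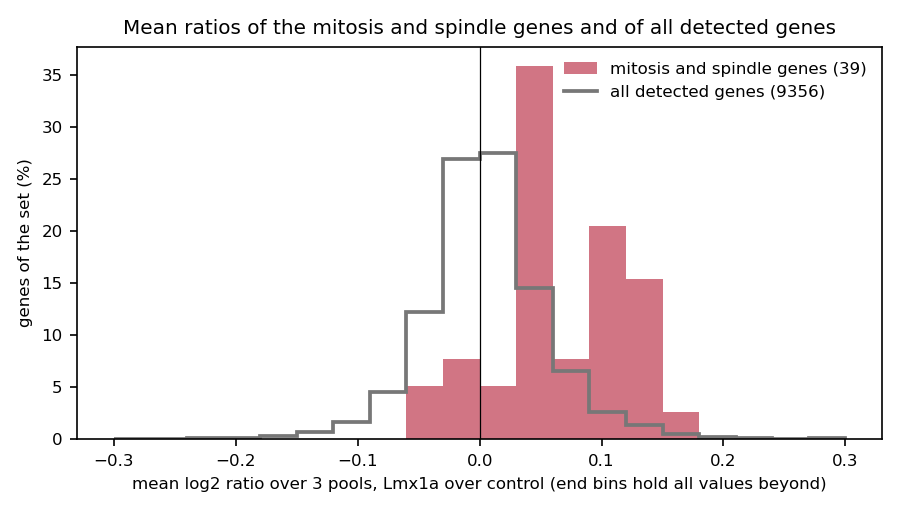
The x axis gives the mean log2 ratio of Lmx1a over control over 3 pools and the y axis the percentage of genes in each bin, for the 39 mitosis and spindle genes (filled) and the 9356 detected genes (line). The filled bars lie mostly to the right of 0, with 34 of 39 genes above it, and within the range of the detected genes.

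The 3 pools did not carry the shift equally. The median of the 39 genes was 0.050 in pool 1, 0.15 in pool 2 and 0.0091 in pool 3, while that of all detected genes was 0.0054, 0.0027 and 0.0022. Within each dye the order was the same: with Lmx1a in Cy5 the medians were 0.034, 0.12 and 0.0018 in pools 1, 2 and 3, and with Lmx1a in Cy3 they were 0.059, 0.18 and 0.0095. Pool 2 thus stood apart in both orientations and pool 3 lay near 0. Pool 2 was the highest pool in both orientations for 24 of 39 genes, against 13.4% of probes and 16.4% of detected genes. Pool 3 was the lowest in both for 16 of 39, against 12.0% of probes and 1236 of 9356 detected genes. Pool 2 exceeded the mean of the other pools in 35 of 39 genes, by a median of 0.13 on the log2 scale. Over all detected genes the median of this difference was 0.00068, and 5.37% of them exceeded the median of the list. Without pool 2 the median of the list was 0.027 and 32 genes were above 0, so 1 pool decided the size of the shift. Each pool is 1 sample, so no test between pools was made, and the part of array brightness in their order was not tested. Under median centring in place of the loess fit the pool medians were -0.022, 0.14 and 0.062. The order of pools 1 and 3 thus turned round with this normalization, and pool 2 was still the highest. All detected genes moved as well, with pool medians of -0.030, -0.00022 and 0.036 under median centring, and the list lay above them in each pool.

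**Figure D3:**
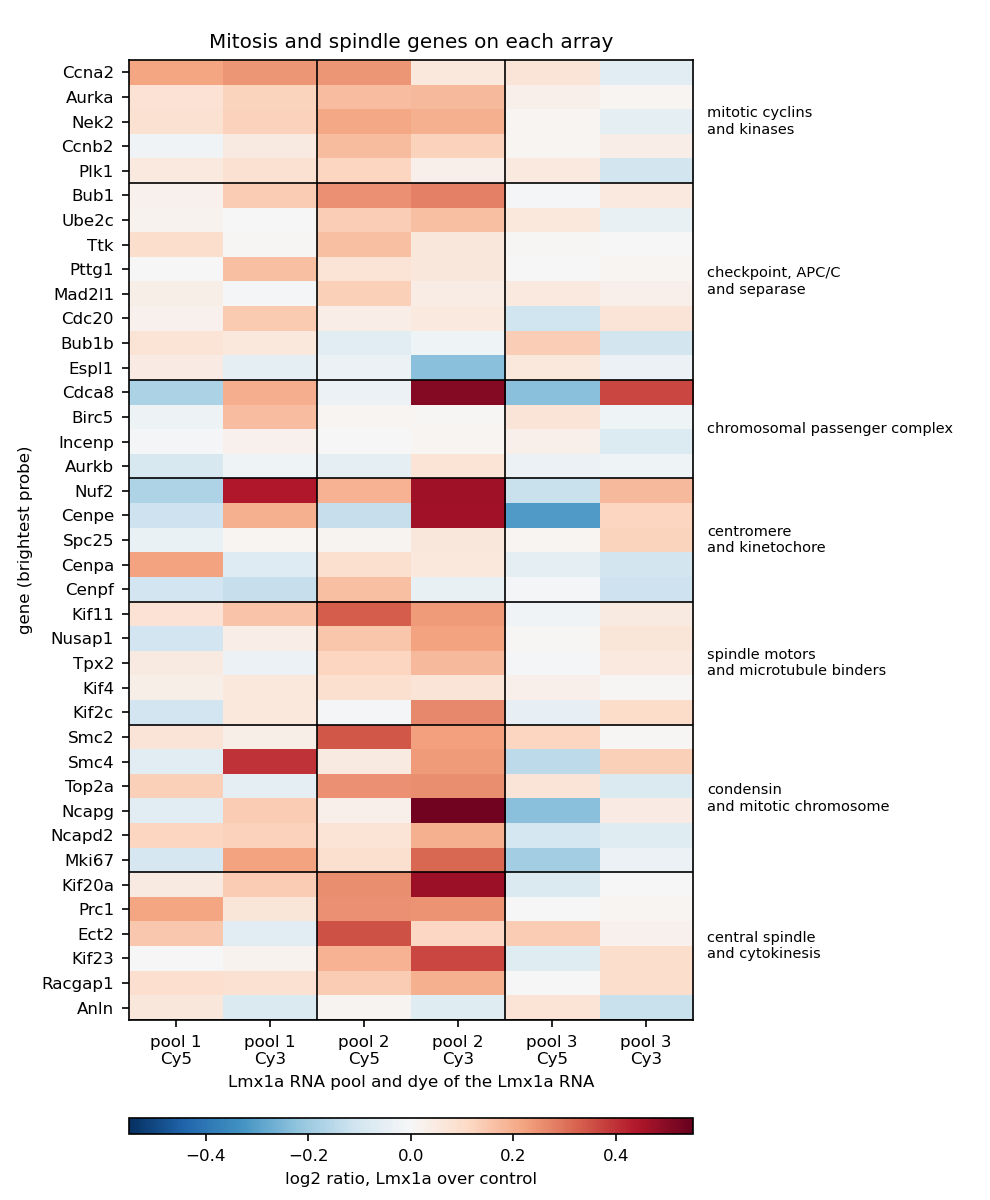
Rows are the 39 mitosis and spindle genes by role and columns are the 6 arrays, in pairs of Lmx1a in Cy5 and Lmx1a in Cy3 for each pool, and colour gives the log2 ratio of Lmx1a over control. The pool 2 columns are mostly red, with 36 of 39 pool means above 0, and the pool 3 columns are pale, with 24 of 39 above 0.

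In the values that follow, Cy5 or Cy3 names the dye of the Lmx1a RNA on the array. Among the mitotic cyclins and kinases all 5 measured genes had a mean above 0, with a median of 0.097. Ccna2 (cyclin A2, which acts from S phase to early mitosis) had the highest mean, with log2 ratios of 0.22, 0.24 and 0.073 in pools 1, 2 and 3 in Cy5 and 0.24, 0.056 and -0.057 in Cy3. Its mean was 0.13 ± 0.11 (SD, n = 3), and pool 1 was its highest pool. Plk1, the Polo-like kinase of mitotic entry, had the lowest, at 0.054, 0.12 and 0.054 in Cy5 and 0.084, 0.030 and -0.099 in Cy3, with a mean of 0.040 ± 0.054. Aurka was one of only 6 genes above 0 on all 6 arrays, at 0.081, 0.17 and 0.030 in Cy5 and 0.12, 0.18 and 0.0095 in Cy3. Both dyes gave Aurka nearly the same value, 0.094 in Cy5 and 0.10 in Cy3. Nek2, a centrosomal kinase, averaged 0.097 and Ccnb2, a B-type cyclin, 0.063.

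Of the 8 genes of the checkpoint, the APC/C and separase, 7 had a mean above 0, with a median of 0.050. Bub1, a checkpoint kinase at the kinetochore, was highest, at 0.026, 0.25 and -0.010 in pools 1, 2 and 3 in Cy5 and 0.14, 0.28 and 0.052 in Cy3. Both pool 2 arrays exceeded the other 4 for this gene. Espl1 was lowest, at 0.044, -0.032 and 0.057 in Cy5 and -0.051, -0.23 and -0.032 in Cy3, and here pool 2 gave the lowest value. Ttk, the checkpoint kinase MPS1, was above 0 on all arrays, at 0.098, 0.17 and 0.0043 in Cy5 and 0.0048, 0.063 and 0.0026 in Cy3. Pttg1, the separase inhibitor securin, was also above 0 on all 6, at 0.00037, 0.077 and 0.0018 in Cy5 and 0.17, 0.063 and 0.012 in Cy3, so 2 of its values lay almost at 0. The ubiquitin-conjugating enzyme of the APC/C, Ube2c, averaged 0.056, the checkpoint protein Mad2l1 0.046, the APC/C activator Cdc20 0.036 and the checkpoint kinase-like protein Bub1b 0.015.

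The chromosomal passenger complex, which corrects faulty kinetochore attachments and later acts in cytokinesis, was the group nearest to 0, with a median of 0.016 over 4 genes. Cdca8 (borealin) was highest, but its values split by dye: with Lmx1a in Cy5 they were -0.18, -0.033 and -0.23 in pools 1, 2 and 3, and with Lmx1a in Cy3 they were 0.20, 0.50 and 0.37. No value of one orientation overlapped those of the other. Aurkb, the kinase of the complex, was lowest, at -0.087, -0.055 and -0.031 in Cy5 and -0.024, 0.074 and -0.025 in Cy3. The scaffold Incenp averaged -0.0032 and survivin, Birc5, averaged 0.034. The means of the 4 subunits ran from -0.025 to 0.11, with a median SD of 0.032 (n = 3), and whether they shared a shift was not tested.

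At the centromere and kinetochore 4 of 5 genes had a mean above 0, with a median of 0.031. Nuf2, a subunit of the NDC80 complex that binds microtubules, had the highest mean of the whole list, 0.16 ± 0.15 (SD, n = 3). Its log2 ratios were -0.17, 0.19 and -0.12 in pools 1, 2 and 3 in Cy5 and 0.44, 0.47 and 0.18 in Cy3. The orientations thus lay far apart, at -0.034 in Cy5 and 0.36 in Cy3, and the mean takes both together. Cenpf, a large kinetochore protein of late G2, was lowest, at -0.11, 0.17 and -0.0094 in Cy5 and -0.13, -0.039 and -0.11 in Cy3, below 0 on 5 of 6 arrays. Spc25, another NDC80 subunit, averaged 0.031, the kinesin Cenpe 0.037 and the centromeric histone Cenpa 0.024.

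All 5 spindle motors and microtubule binders had a mean above 0, with a median of 0.060, and pool 2 was the highest pool in both orientations for all 5. Kif11, the kinesin that pushes spindle poles apart, was highest, at 0.078, 0.33 and -0.018 in pools 1, 2 and 3 in Cy5 and 0.16, 0.23 and 0.048 in Cy3. The 2 dyes gave Kif11 similar means, 0.13 in Cy5 and 0.15 in Cy3. Kif2c, a kinesin that shortens microtubules, was lowest, at -0.11, -0.0061 and -0.046 in Cy5 and 0.059, 0.26 and 0.10 in Cy3. Kif4, a chromokinesin, was above 0 on all 6 arrays, at 0.034, 0.089 and 0.027 in Cy5 and 0.056, 0.070 and 0.0079 in Cy3. Nusap1, which bundles spindle microtubules, averaged 0.064, and Tpx2, the activator of Aurora A on the spindle, averaged 0.060.

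The condensin and mitotic chromosome genes were all above 0 on average, 6 of 6, with a median of 0.086, and they differed most between pools. Their medians were 0.057, 0.23 and -0.044 in pools 1, 2 and 3. Smc2, the ATPase shared by both condensin complexes, was highest and was above 0 on all 6 arrays, at 0.069, 0.34 and 0.12 in Cy5 and 0.031, 0.23 and 0.0082 in Cy3. Mki67, the proliferation marker Ki-67 that coats mitotic chromosomes, was lowest, at -0.092, 0.087 and -0.19 in Cy5 and 0.22, 0.32 and -0.032 in Cy3. Top2a averaged 0.098, and the condensin subunits Smc4, Ncapg and Ncapd2 averaged 0.10, 0.075 and 0.059.

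The central spindle and cytokinesis genes had the highest median of the 7 groups, 0.11, and 5 of 6 were above 0. Kif20a, a kinesin of the central spindle, was highest, at 0.051, 0.26 and -0.079 in pools 1, 2 and 3 in Cy5 and 0.14, 0.47 and -0.0017 in Cy3. Its mean of 0.14 had an SD of 0.21, the largest of the 39 genes. Anln, the actin-binding protein anillin of the cleavage furrow, was lowest, at 0.063, 0.015 and 0.074 in Cy5 and -0.080, -0.066 and -0.12 in Cy3. Prc1, which bundles central spindle microtubules, was above 0 on all 6 arrays, at 0.22, 0.25 and 0.00049 in Cy5 and 0.068, 0.25 and 0.011 in Cy3. The exchange factor Ect2 averaged 0.12, the centralspindlin subunits Kif23 and Racgap1 0.10 each. By brightest probe, the 6 genes above 0 on every array were Aurka, Kif4, Prc1, Pttg1, Smc2 and Ttk. This compares with 2.66% of all probes and 4.64% of detected genes. A second probe detected on all 6 arrays was above 0 on 4 of them for Prc1 and Smc2 and on 5 for Ttk. The other probes of Pttg1 were above 0 on 4 and 3 arrays, while a second probe of Ncapg was above 0 on all 6. By brightest probe, 0 of the 39 genes were below 0 on every array, against 286 of 9356 detected genes, which is also a small share.

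Several probes measured 14 of the 39 genes, and 53 of the 60 probes had a mean above 0. In 9 of these genes more than 1 probe was detected on all arrays, and in 7 of them those probes shared a sign. The exceptions were Anln, with -0.019 and 0.057, and Ube2c, with 0.056, 0.043 and -0.015. For Smc4 the 2 brightest probes were almost equally bright and gave 0.10 and 0.0069. Of the 22 probes of these 9 genes, 18 were highest in pool 2, against 36.0% of all detected genes. These probes share the RNA and the choice of genes, so they add no separate evidence on the pools.

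The dye swap gave a measure other than the Lmx1a contrast, but it is computed from the same array ratios that the choice used. It is therefore given as a description as well. A dye bias, Cy5 over Cy3 regardless of the RNA, passed the limma test at an adjusted p under 0.05 in 8 of 39 genes, against 6.80% of all probes and 11.7% of detected genes. It was toward Cy3 in 7 genes (Cdca8, Cenpe, Kif2c, Mki67, Ncapg, Nuf2 and Smc4) and toward Cy5 in Ect2. These are results of the brightest probes. Ncapg, Smc4 and Cenpe each had another probe detected on all arrays that did not pass, with a bias of -0.0033, 0.0096 and -0.012. Further probes of Cenpe (-0.21) and Smc4 (-0.30 and -0.27) did pass. Among the brightest probes Cdca8 had the largest bias, -0.25 on the log2 scale with a limma adjusted p of 0.00392, followed by Cenpe at -0.22 and Nuf2 at -0.20. These genes carry the widest gaps between orientations, for Cenpe -0.19 in Cy5 and 0.26 in Cy3. The count was 0 with plain background subtraction, 38 with median centring, 5 without pool 1, 4 without pool 2 and 2 without pool 3. Over the list, 29 genes were above 0 in the Cy5 orientation of Lmx1a RNA, 33 in its Cy3 orientation and 23 in both. The medians were 0.051 in the Cy5 orientation and 0.081 in the Cy3 orientation.

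**Figure D4:**
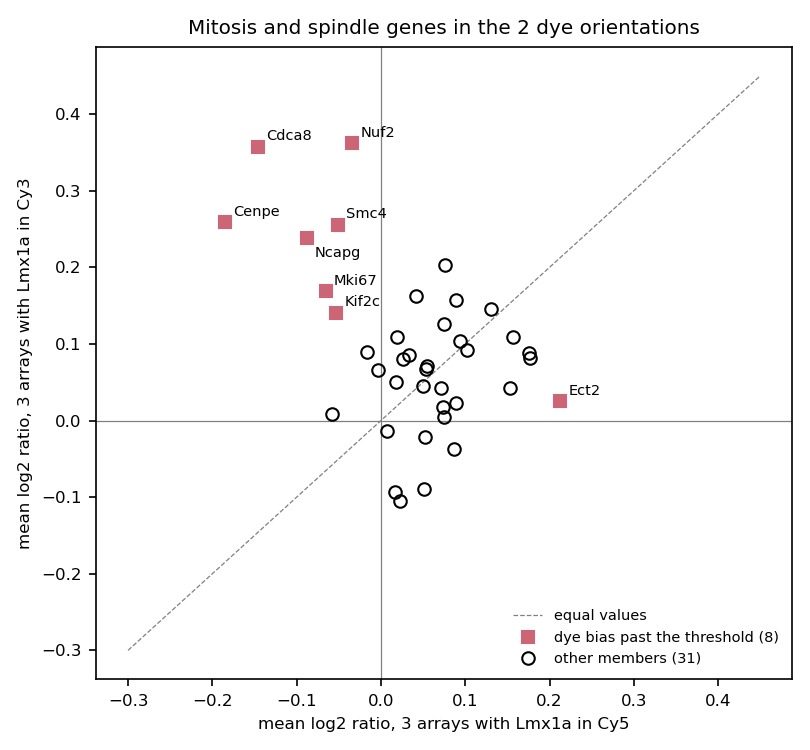
Each point is 1 of the 39 mitosis and spindle genes, with the mean log2 ratio of the 3 arrays with Lmx1a in Cy5 on the x axis and of the 3 arrays with Lmx1a in Cy3 on the y axis, and squares mark the 8 genes with a dye bias past the threshold. Of these, 7 lie above the dashed line of equal values and Ect2 lies below it, and 23 of the 39 genes lie above 0 on both axes.

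Other mitosis genes, 100 measured outside the list, had a smaller median of 0.037, and 78 were above 0. Their pool medians were 0.020, 0.061 and 0.018 in pools 1, 2 and 3. The highest detected genes were Ncaph (condensin I) at 0.20, Cdc27 (APC/C) at 0.17, Ckap5 (a microtubule polymerase) at 0.14 and Cenpc1 (inner kinetochore) at 0.12. Ckap5 was uneven, at 0.060, 0.43 and -0.060 in pools 1, 2 and 3, and at -0.10 in Cy5 and 0.39 in Cy3. The lowest were the APC/C subunits Anapc13 at -0.13 and Anapc11 at -0.087, the NDC80 subunit Spc24 at -0.075 and the kinase-binding protein Cks2 at -0.037. By limma 0 of 100 passed the threshold, and at an unadjusted p under 0.05 there were 27 above 0, against 6.23% of all probes, and 3 below, against 5.56%. With the 6 arrays and a replicate block, which called 1.08% of all probes, 2 of the 100 genes passed. Pbk, a mitotic kinase, had a mean of 0.096 (limma adjusted p = 0.0335 with the block, 0.174 over 3 pools). Anapc13 had a mean of -0.13 (limma adjusted p = 0.0171 with the block, 0.114 over 3 pools). With the dye term as well, which called 1.05%, Fbxo5, an APC/C inhibitor, also passed, at 0.11 (limma adjusted p = 0.0466, and 0.142 over 3 pools).

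The 50 DNA replication and S phase genes shared the pool pattern, with a median of 0.036 and pool medians of 0.019, 0.10 and -0.0094. Their highest genes were Mcm4, a subunit of the replicative helicase, at 0.20 and Rrm2, of ribonucleotide reductase, at 0.14, and their lowest were Pold2 at -0.047 and E2f1 at -0.021. By limma 0 passed the threshold, and at an unadjusted p under 0.05 there were 14 of 50 above 0, against 6.23% of all probes, and 0 below, against 5.56%. The replicate block called 0 of 50, against 1.08%. The 25 G1 and arrest genes had a median of 0.015 and pool medians of 0.026, 0.013 and 0.021, without a high pool 2. Btg1 (antiproliferative) at 0.13 and Rb1 (retinoblastoma protein) at 0.10 were highest, and Gadd45a at -0.040 and Rbl2 at -0.0085 were lowest. By limma 0 passed, and at an unadjusted p under 0.05 there were 6 of 25 above 0, against 6.23% of all probes, and 0 below, against 5.56%. With the replicate block 1 of 25 passed, against 1.08% of probes, namely Rb1 (limma adjusted p = 0.0378, and 0.140 over 3 pools). The shares over all probes include undetected probes, and among 9356 detected genes 1098 were higher and 753 lower at an unadjusted limma p under 0.05. Differences between the lists were not tested.

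**Figure D5:**
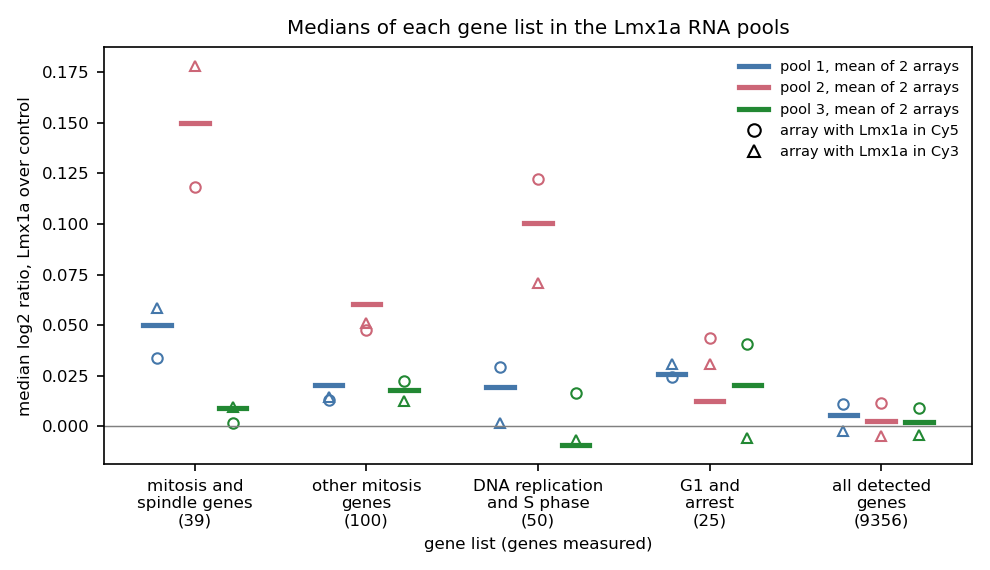
The y axis gives the median log2 ratio of Lmx1a over control of each gene list on the x axis, with bars for pools 1, 2 and 3 from left to right and open symbols for the single arrays of each pool. In the mitosis and spindle genes pool 2 stands at 0.15 and pool 3 at 0.0091, and in all detected genes the 3 pools lie between 0.0022 and 0.0054.

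The 26 measured genes with CHR letters in the promoter had a median log2 ratio of 0.058, and the 7 measured genes with a window and no such letters had one of 0.053. In pool 2 alone the medians were 0.15 with CHR letters and 0.17 without. The 26 measured genes with CCAAT had a median of 0.061 overall and 0.17 in pool 2, against 0.046 and 0.086 for the 7 without. The ranges of both kinds overlapped in each case, from -0.041 to 0.14 with CCAAT and from -0.019 to 0.16 without.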

How the data were processed

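Gene expression was measured in MN9D cells on 6 2-colour arrays, grouped by the labels into 3 Lmx1a RNA pools with 2 dye-swapped arrays each, against 1 control pool. The deposited scanner tables hold spot intensity on a linear scale, per the file headers, as spot means with background medians and standard deviations; the sources used here do not give the scanner software. Log2 ratios of Lmx1a over control were deposited by the authors as well, and their scale, centring and direction were read from the values: they followed a loess fit within print grids without background subtraction (correlation across spots 0.996 to 0.999). They served as an alternative. The channel-2 labels are shifted by one field, so channels were taken from source names and dyes.

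Background was corrected with normexp (offset 50), and ratios were normalized by loess within arrays (span 0.3), with the 3223 control spots at weight 0 and then left out, turned to Lmx1a over control and averaged over the 2 arrays of a pool. The mean of 3 pools was tested against 0 in limma 3.58.1 (R 4.3.3), and p-values were adjusted over 31769 probes by the Benjamini-Hochberg method, with a threshold of 0.05. The control pool is 1 sample, so its own spread is left out. No label says that the pools came from separate transfections. The p-values therefore measure only the spread between these pools, and the number of arrays limits the precision. For dye bias the same test was applied to Cy5 over Cy3, averaged over the arrays of a pool. Each gene is represented by its brightest probe. Probe names came from the platform annotation, with 2865 updated through RefSeq synonyms. Only the limma test of 3 pool values was run on simulated data with known changes. Background correction, normalization, dye swap and block fit were not simulated.

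The genes, the lists and the motifs were chosen with earlier results of these data known. Values on single arrays are given for the highest and lowest gene of each role and for genes with 1 sign on all arrays. From the other mitosis genes the 4 highest and 4 lowest detected genes are named, and from the S phase and G1 lists the 2 highest and 2 lowest. Rb1, Pbk, Fbxo5 and Slc18a2 are also named for their block result, and Top2a and Ube2c for their promoters, after their values were seen. Alternatives were other background corrections, normalizations, probes, dye orientations, omitted pools, priors and a replicate block.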

Additional observations from a re-analysis of the deposited data

How the results depend on the processing

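The median of the mitosis and spindle genes stayed above 0 under every alternative run, from 0.027 without pool 2 to 0.083 without pool 3, and 29 to 35 of 39 genes were above 0. No alternative put any of the 39 genes past the limma threshold. The pool 1 median was 0.071 with plain background subtraction and -0.022 with median centring, and the pool 3 median was 0.062 with median centring. With median centring all detected genes had medians of -0.030 in pool 1 and 0.036 in pool 3. The cause was not tested. Genes with a dye bias numbered 0 with plain background subtraction and 38 with median centring, which leaves intensity-dependent dye curves in place, and 2 to 5 when a pool was left out, with fewer samples. The replicate block as planned gave a consensus correlation of -0.29 and called 342 probes and 0 of the 39 genes. A dye term was then added, after these data were seen, which gave a correlation of 0.068, 333 probes and 0 of the 39 genes. With the dye term the block counts the 2 arrays of a pool about as separate samples, although there were only 3 pools. The negative correlation of the planned block gives a pool mean even less variance than separate samples would have. The planned block fit therefore overstates the precision further. The mean over all probes of a gene gives no call and no dye count over the whole table, so these were not run. Probes that are dim, such as that of Espl1, limit what small ratios show.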
